A study of Saccharomyces cerevisiae with 12 samples.

Results

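A set of 10 genes of the budding yeast cell wall integrity pathway was followed across 4 strains that differ in Taf14. They were chosen by identifier, and all 10 were found among the 6692 counted genes. They are SLT2 and RLM1 (the kinase and the transcription factor at the end of the cascade), KDX1, PRM5, CRH1, FKS1, FKS2 (named GSC2 in RefSeq), NCW2, PIR3 and CWP1. The study asked how transcription changes when the YEATS domain of Taf14 can no longer bind acetylated histone H3. All strains derive from BY4741 and all carry a pRS313 plasmid with HA3-SSN6 in its name. Wild type held the empty vector, and a taf14 deletant held the same empty vector (here the deletant), the vector with full-length TAF14 (TAF14 cells) or the vector with taf14W81A, whose YEATS domain carries the W81A change (W81A cells). So TAF14 and W81A cells are both plasmid-complemented deletants, and neither has a chromosomal copy of the gene. Each group had 3 libraries of ribosome-depleted total RNA. Whether the replicates came from separate cultures or clones is not stated in the labels, and every p-value here reflects the spread among these libraries alone.

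The cell wall integrity pathway senses stress at the yeast surface. Plasma membrane sensors act through the GTPase Rho1 on protein kinase C (Pkc1), which starts a cascade of the kinases Bck1, Mkk1 with Mkk2, and the MAP kinase Slt2. Slt2 phosphorylates the transcription factor Rlm1, which turns on genes for wall proteins and wall-building enzymes, and it also acts on SBF, the Swi4-Swi6 factor of the G1/S switch. Pheromone, heat and agents that weaken the wall are textbook inducers. Several wall genes also follow the cell cycle or the general stress response.

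Library totals ran from 9007715 to 11662085 counts. TAF14 had 0.437, 0.199 and 0.484 CPM (counts per 1000000 of the scaled library size) in the deletion libraries 129 to 148 in wild type, 192 to 223 in W81A cells and 355, 143 and 302 in TAF14 cells, so the labelled deletion was seen in all 3 of its libraries, and TAF14 replicate 2 lay within the wild type range and below its partners. Of the mating type markers, the a-cell genes STE2, MFA2, BAR1, AGA2 and MFA1 had at least 109, 82.7, 34.5, 12.1 and 8.40 CPM in every library. The alpha-cell genes MF(ALPHA)1, STE3 and MF(ALPHA)2 had at most 1.85, 5.33 and 5.97 CPM. SAG1, also an alpha-cell gene, had 23.0 to 31.1 CPM, above the lowest values of AGA2 and MFA1. LEU2, URA3 and MET17, which BY4741 lacks, had 0 counts throughout (up to 0.327 CPM allowed by a count of 0). The second TAF14 library also differed from its partners in other genes. Its chromosome XII genes lay 0.576 higher in log2 than in wild type, relative to other nuclear genes, and the same shift was 0.489 to 0.548 in the deletion libraries and between -0.00472 and 0.0338 in the remaining 8. FKS1 and NCW2 lie on that chromosome. HSP12, a general stress gene, had 165 CPM in this library and 6.18 CPM in each partner, against 43.6 to 79.2 in wild type, 1151 to 1299 in W81A cells and 1378 to 1562 in the deletant. Comparisons with TAF14 cells are therefore also described without replicate 2.

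The promoters were searched for the letters that pathway factors bind, because the members did not all move in the same direction. The planned window, 250 bases before to 50 after the start, held the Rlm1 site (CTA and TAG separated by 4 bases) in 0 of the 10 members. It occurred there in 5.56% of 5985 promoters of protein-coding genes. A window of 600 bases before the start codon was chosen after seeing the data. In that window the Rlm1 site occurred in 4 of the 10 members (RLM1 itself, FKS2, PIR3 and CWP1) and in 10.9% of 5983 promoters. The matches are printed in the direction of the gene, 5′ to 3′, with the site in capitals and 10 bases on each side, from build R64. They begin 308, 336, 280 and 386 bases before the start codon and lie at chrXVI:381439-381468 (minus strand), chrVII:547918-547947 (plus), chrXI:144111-144140 (plus) and chrXI:260736-260765 (plus).
RLM1: gagatgaaagCTAATAATAGaaacagctcg
FKS2: aactggtgtgCTAAGAATAGagtttcataa
PIR3: gattagcaaaCTAATTATAGatcaaaggcc
CWP1: tacgtcataaCTAAAAATAGcgttagccac

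The SBF site CACGAAA occurred in CRH1, FKS2 and NCW2 and in 8.31% of promoters, and the Ste12 pheromone element TGAAACA in PRM5 and CRH1 and in 14.6% of promoters. These matches are shown because PRM5 and CRH1 moved in opposite directions in W81A cells. In CRH1 and NCW2 the SBF site reads on the opposite strand, so its capitals are the reverse complement. The positions, in the order printed, are chrIX:141799-141825, chrVII:878298-878324, chrVII:878486-878512, chrVII:547863-547889 and chrXII:541893-541919.
PRM5, Ste12 element: atattgttctTGAAACAactttgtcac
CRH1, Ste12 element: gaacaaaaggTGAAACActtttggaac
CRH1, SBF site: agggcttgctTTTCGTGgtatgggata
FKS2, SBF site: gagtgtgtgaCACGAAAttcaagatac
NCW2, SBF site: cgtatatagtTTTCGTGtacatagccg

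The stress response element AGGGG occurred in PIR3 and CWP1 and in 39.7% of promoters. Both strands were searched and no printed site overlaps another. In the planned window of 250 bases before to 50 after the start, no member held the Rlm1, SBF or stress letters (5.56%, 4.21% and 21.7% of 5985 promoters), and PRM5 and CRH1 held the Ste12 element (7.5%). The window of 1000 bases held a Ste12 element in FKS2 and a stress element in SLT2 as well, and further matches in members that already had one, where 23.1% and 55.0% of 5980 promoters held these letters. A match is a string of letters, not shown here to be bound.

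The members spanned a wide range of levels. Per 1000 bases of coding length, the mean over 12 libraries was 954 RPKM for FKS1, 291 for CRH1, 205 for NCW2, 119.7 for CWP1, 82.5 for SLT2, 66.3 for PRM5, 54.4 for RLM1, 26.8 for FKS2, 20.5 for KDX1 and 12.6 for PIR3. The least covered member, PIR3, rested on 50 to 207 reads per library, and the most covered, FKS1, on 39632 to 84079. All 10 are single-exon genes that overlap no other annotated gene. No other gene matched any of them over 30% of its length at 95% identity; the highest-scoring pair, FKS1 and FKS2, aligned over 92.9% of FKS1 at 81.6% identity.

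**Figure D1:**
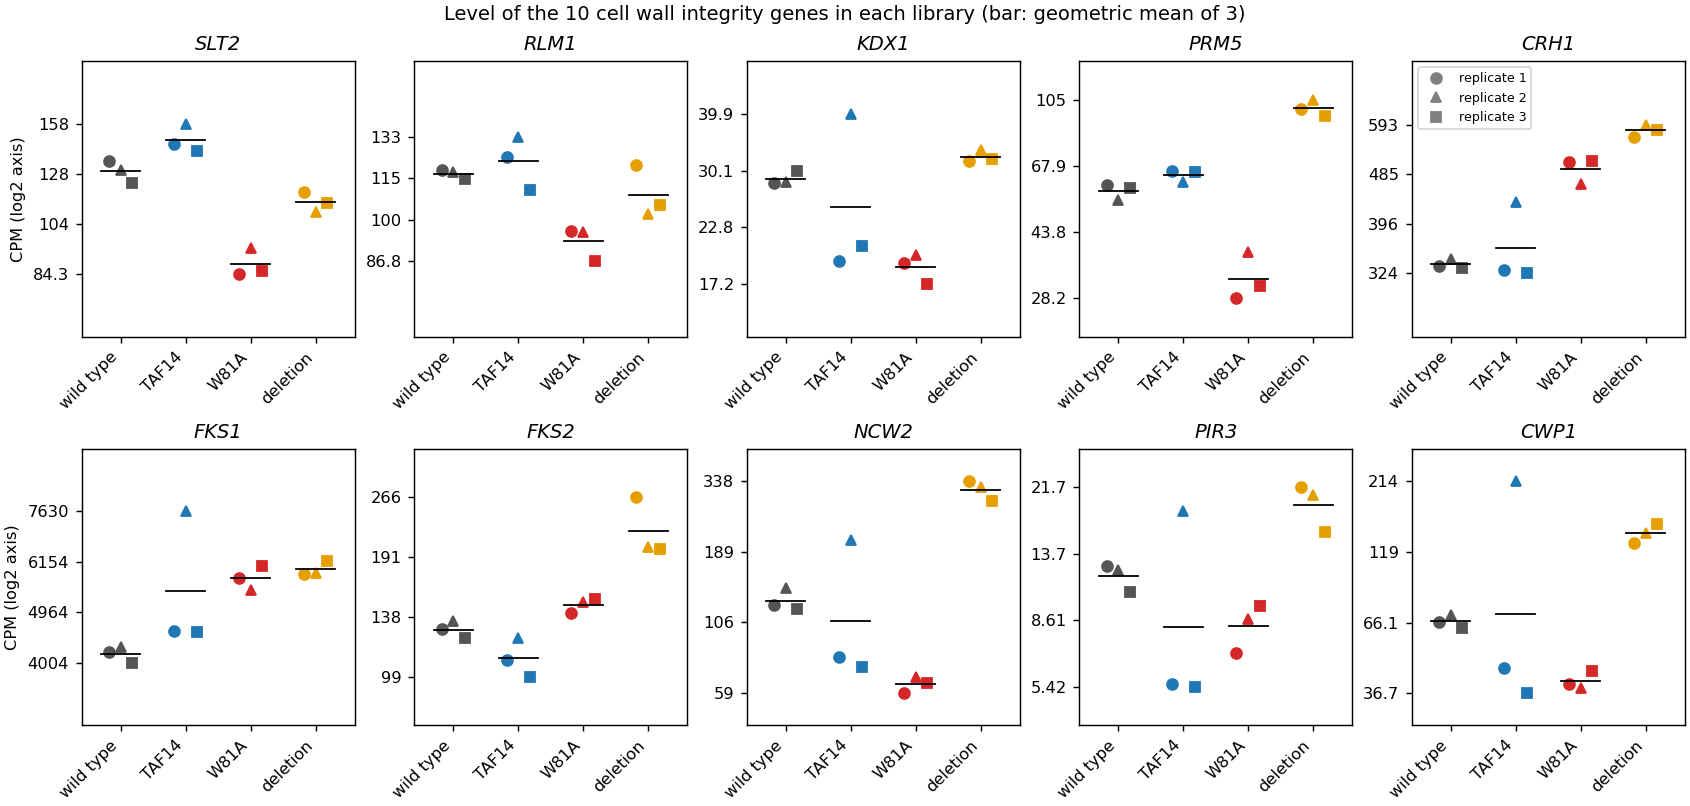
CPM of the 10 members on log2 axes, 1 point per library, with symbols for replicates and a bar at the geometric mean of each group's 3 libraries. The W81A libraries lie lowest for SLT2, RLM1, PRM5 and NCW2, the deletion libraries highest for PRM5, CRH1, FKS2 and NCW2, and replicate 2 of TAF14 cells lies far above its partners for KDX1, FKS1, NCW2, PIR3 and CWP1.

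The kinase and the factor were both lowest in W81A cells. SLT2 (YHR030C, chromosome VIII 168890-170344, minus strand), the MAP kinase, had 84.3, 94.3 and 85.7 CPM in the W81A libraries, 119, 109.6 and 114 in the deletion libraries, 135, 130.5 and 124 in wild type and 145, 158 and 141 in TAF14 cells. No group overlapped another, and the order from high to low was TAF14, wild type, deletion, W81A. In bulk RNA, fewer cells expressing a gene and less RNA per cell cannot be told apart, here and below. SLT2 fell in W81A cells by 0.56 ± 0.07 (SE) on the log2 scale against wild type (1.47-fold lower, adjusted p = 5.48e-05), by 0.75 ± 0.07 against TAF14 cells (1.69-fold, adjusted p = 4.29e-06, and by 0.70 without its replicate 2) and by 0.37 ± 0.07 against the deletant (adjusted p = 0.000608). In the deletant it fell by 0.38 ± 0.06 against TAF14 cells (adjusted p = 0.000361, and by 0.33 without their replicate 2) and by 0.19 ± 0.06 against wild type (adjusted p = 0.0302). The last call was lost without replicate 1 or 2 of wild type or replicate 2 or 3 of the deletant (adjusted p = 0.0682 to 0.141), and with scaling from genes outside chromosome XII (adjusted p = 0.0815).

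RLM1 (YPL089C, chromosome XVI 379120-381150, minus strand), the MADS-box factor under Slt2, had 96.2, 96.0 and 86.8 CPM in the W81A libraries, 121, 102 and 105 in the deletion libraries, 119, 118 and 115 in wild type and 124, 133 and 111 in TAF14 cells. All 3 W81A libraries lay below all 9 others, and the other 3 groups overlapped one another. RLM1 fell in W81A cells against wild type (-0.33 ± 0.08, adjusted p = 0.00754), TAF14 cells (-0.40 ± 0.08, adjusted p = 0.00222, or -0.34 without replicate 2) and the deletant (-0.23 ± 0.08, adjusted p = 0.0308). The call against the deletant was lost without deletion replicate 1 or W81A replicate 3 (adjusted p = 0.13 and 0.122). Between the deletant and wild type its difference was -0.10 ± 0.08 (adjusted p = 0.306). Between the deletant and TAF14 cells it was -0.17 ± 0.08 (adjusted p = 0.0967), and it was called lower without deletion replicate 1 or TAF14 replicate 3 (adjusted p = 0.022 and 0.0317) and was -0.11 without TAF14 replicate 2 (adjusted p = 0.27).

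KDX1 (YKL161C, chromosome XI 149386-150687, minus strand), the paralog of SLT2 and itself a known Rlm1 target, had 19.1, 19.8 and 17.2 CPM in the W81A libraries, 31.7, 33.3 and 31.9 in the deletion libraries and 28.3, 28.5 and 30.1 in wild type. Its TAF14 libraries had 19.3, 39.9 and 20.7 CPM, so replicate 2 lay above every other library and its 2 partners lay near W81A cells. KDX1 fell in W81A cells by 0.79 ± 0.21 against the deletant (1.73-fold lower, adjusted p = 0.00866) and by 0.63 ± 0.21 against wild type (adjusted p = 0.0424). The call against wild type was lost without any 1 of the wild type or W81A libraries or of deletion replicates 1 and 3 (adjusted p = 0.0526 to 0.126). Without TAF14 replicate 2 its SE fell to 0.08 and its adjusted p to 3.36e-05. Against TAF14 cells the W81A difference was -0.52 ± 0.21 with all libraries (adjusted p = 0.0779; called without TAF14 replicate 1 or 3, adjusted p = 0.02 and 0.0352) and -0.0971 ± 0.10 without replicate 2 (adjusted p = 0.463), while KDX1 was then called lower in TAF14 cells than in wild type (-0.54 ± 0.09, adjusted p = 0.00062). The deletant difference from TAF14 cells was 0.27 ± 0.20 with replicate 2 (adjusted p = 0.299) and 0.69 ± 0.09 without it (adjusted p = 1.59e-05).

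PRM5 and CRH1 both rose in the deletant but differed in direction in W81A cells. PRM5 (YIL117C, chromosome IX 140613-141569, minus strand), a membrane protein gene induced by pheromone and by wall stress, had 28.2, 38.3 and 30.5 CPM in the W81A libraries, 59.8, 54.1 and 58.6 in wild type, 65.7, 61.2 and 65.1 in TAF14 cells and 99.8, 105 and 95.2 in the deletant. The 4 groups did not overlap. PRM5 fell in W81A cells by 0.83 ± 0.10 against wild type (1.78-fold lower, adjusted p = 5.27e-05) and by 0.99 ± 0.10 against TAF14 cells (1.98-fold, adjusted p = 1.21e-05). It rose in the deletant by 0.80 ± 0.09 against wild type (1.74-fold, adjusted p = 1.62e-05) and by 0.65 ± 0.09 against TAF14 cells (adjusted p = 7.46e-05). W81A libraries were 3.10-fold lower than deletion libraries (-1.63 ± 0.10, adjusted p = 5.15e-08). These 5 PRM5 calls held under every alternative run, including the fit without TAF14 replicate 2.

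CRH1 (YGR189C, chromosome VII 876669-878192, minus strand), which encodes a transglycosylase that links chitin to glucan, had 334, 343 and 330.2 CPM in wild type, 509, 465 and 512 in W81A cells and 566, 593 and 582 in the deletant. The TAF14 libraries had 328, 433 and 324 CPM, and only replicate 2 lay above wild type. CRH1 rose by 0.79 ± 0.09 in the deletant (1.73-fold, adjusted p = 2.37e-05) and by 0.56 ± 0.09 in W81A cells (1.48-fold, adjusted p = 0.000785), both against wild type. Against TAF14 cells it rose by 0.68 ± 0.09 in the deletant and by 0.45 ± 0.09 in W81A cells (adjusted p = 6.7e-05 and 0.0029), or by 0.83 and 0.60 without replicate 2. W81A libraries lay below deletion libraries without overlap, a difference of -0.23 ± 0.09 that missed the threshold in the fit of all 12 libraries (adjusted p = 0.0637) and was called without any 1 of the TAF14 libraries (adjusted p = 0.0469, 0.00215 and 0.0492 for replicates 1, 2 and 3).

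FKS1 and FKS2 encode alternative catalytic subunits of the enzyme that makes the main wall polymer, beta-1,3-glucan; FKS1 serves growing cells, and FKS2 is induced by stress and by low glucose. FKS1 (YLR342W, chromosome XII 809997-815627, plus strand) had 4194, 4291 and 4004 CPM in wild type, 5751, 5469.6 and 6046 in W81A cells, 5853, 5874 and 6174 in the deletant and 4594, 7630.2 and 4573 in TAF14 cells. All W81A and deletion libraries exceeded all wild type libraries, and TAF14 replicate 2 exceeded every other library. FKS1 rose against wild type in the deletant (0.52 ± 0.16, adjusted p = 0.0143) and in W81A cells (0.47 ± 0.16, adjusted p = 0.0407). The deletion libraries also carried the chromosome XII shift of 0.489 to 0.548. When libraries were scaled on chromosome XII genes alone, the deletion difference was 0.0403 (adjusted p = 0.75) and the W81A difference was 0.44 (adjusted p = 0.011). On that scale FKS1 was higher in W81A cells than in the deletant (0.40, adjusted p = 0.00415), where the usual scaling gave -0.0521 ± 0.16 (adjusted p = 0.808). The W81A call against wild type was lost without any 1 of the wild type or W81A libraries or deletion replicate 3 (adjusted p = 0.0551 to 0.112). Without TAF14 replicate 2, FKS1 was 0.33 higher in W81A cells and 0.38 higher in the deletant than in TAF14 cells (adjusted p = 0.00296 and 0.00053), against 0.0396 and 0.0917 with it. The TAF14 difference from wild type was 0.43 ± 0.16 (adjusted p = 0.0776), and it was called without TAF14 replicate 1 or 3 (adjusted p = 0.0387 for either), but without replicate 2 it was 0.14 ± 0.07 (adjusted p = 0.188). Relative to other chromosome XII genes, FKS1 in the deletant was -0.14 from TAF14 cells with all libraries (adjusted p = 0.296). Without TAF14 replicate 2, a fit chosen after seeing the data, it was -0.0726 on that scale (adjusted p = 0.402), so the rise of 0.38 was not called there. The W81A difference from TAF14 cells on that scale was 0.26 with all libraries (adjusted p = 0.0971) and 0.33 without replicate 2 (adjusted p = 0.00414).

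FKS2 (YGR032W, chromosome VII 548264-553951, plus strand) had 129, 134 and 123 CPM in wild type, 266, 202 and 200.1 in the deletant, 141, 149 and 152 in W81A cells and 109, 123 and 99.0 in TAF14 cells. Deletion libraries were highest, W81A libraries came next, and wild type and TAF14 libraries touched. FKS2 rose in the deletant by 0.79 ± 0.10 against wild type (1.73-fold, adjusted p = 5.62e-05) and by 1.01 ± 0.11 against TAF14 cells (2.02-fold, adjusted p = 6.4e-06, and by 1.10 without replicate 2). In W81A cells it rose by 0.42 ± 0.11 against TAF14 cells (adjusted p = 0.00908, and by 0.50 without replicate 2), the difference from wild type was 0.20 ± 0.11 (adjusted p = 0.187), and it was lower than in the deletant (-0.59 ± 0.10, adjusted p = 0.000577). Per coding length, FKS2 made up 2.95%, 3.01% and 2.95% of the FKS1 and FKS2 signal in wild type, 4.31%, 3.29% and 3.11% in the deletant, 2.37%, 2.63% and 2.43% in W81A cells and 2.29%, 1.57% and 2.10% in TAF14 cells. The share was thus above every wild type library in all deletion libraries and below every wild type library in all W81A and TAF14 libraries, given as a description with no test. FKS1 lies on chromosome XII, whose genes were shifted up by 0.489 to 0.548 in the deletion libraries and 0.576 in TAF14 replicate 2. The part of that shift in the shares was not tested.

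**Figure D2:**
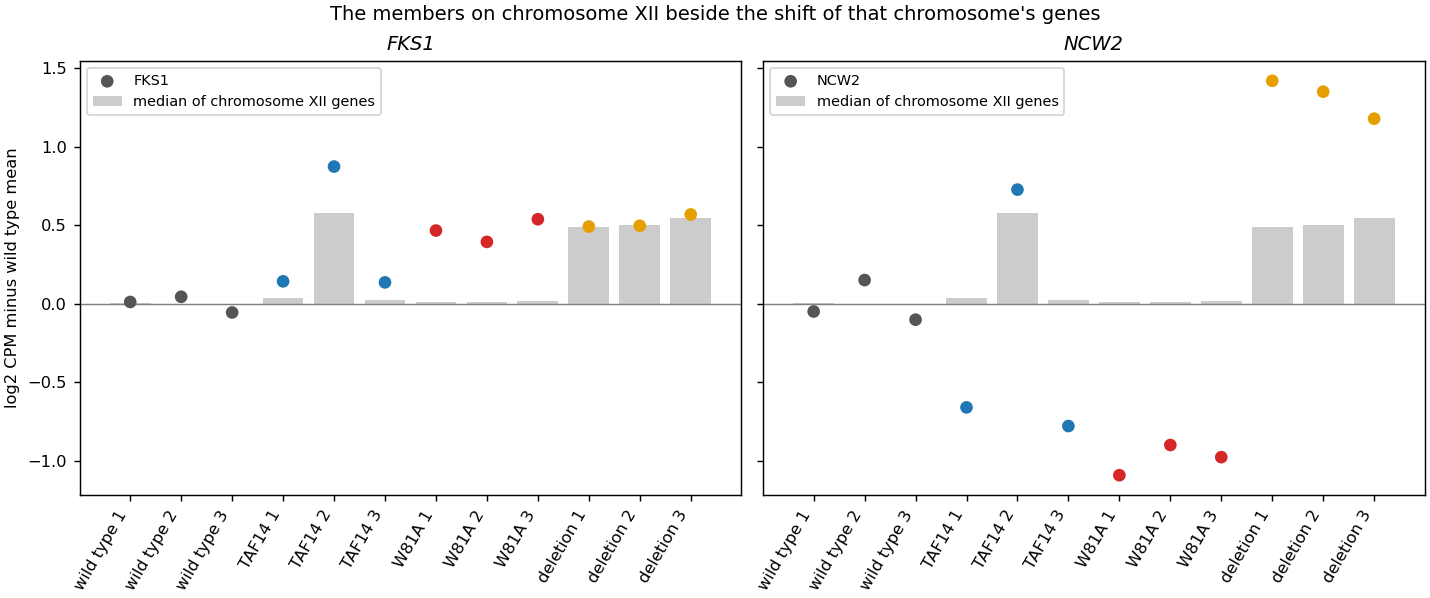
For FKS1 and NCW2, points give log2 CPM minus the wild type mean in each of the 12 libraries, and grey bars give the median shift of all chromosome XII genes relative to other nuclear genes. In the deletion libraries FKS1 lies at the top of the bars and NCW2 far above them, and in the W81A libraries the bars are near 0 while FKS1 is higher and NCW2 lower than wild type.

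NCW2, PIR3 and CWP1 encode proteins that sit in the wall itself. Between the highest and the lowest group mean, NCW2 differed 4.97-fold, CWP1 3.41-fold and PIR3 2.32-fold (3.10-fold in PRM5 and at most 2.02-fold in the other 6 members). Once TAF14 replicate 2 was left out, the lowest PIR3 mean was that of TAF14 cells, and the deletant was 3.52-fold above it. NCW2 (YLR194C, chromosome XII 540809-541573, minus strand), for a GPI-anchored wall protein, had 122, 140.0 and 117 CPM in wild type, 338, 322 and 286 in the deletant, 59.0, 67.4 and 63.9 in W81A cells and 79.7, 209 and 73.3 in TAF14 cells. Deletion libraries lay above all 9 others, W81A libraries below all 9, and TAF14 replicate 2 above wild type while its partners lay below it. NCW2 was 4.97-fold lower in W81A cells than in the deletant (-2.31 ± 0.30, adjusted p = 6.1e-05) and remained lower on the chromosome XII scale (-1.86, adjusted p = 1.58e-06). Against wild type it rose in the deletant by 1.32 ± 0.29 (2.49-fold, adjusted p = 0.00224), or by 0.84 on the chromosome XII scale (adjusted p = 0.00104). It fell in W81A cells by 0.99 ± 0.30 (1.99-fold lower, adjusted p = 0.0258), a call lost without wild type replicate 1 or 2 or any W81A library (adjusted p = 0.0549 to 0.0842). Against TAF14 cells the deletion rise was 1.38 ± 0.29 (adjusted p = 0.00161) and the W81A fall -0.93 ± 0.30 (adjusted p = 0.0298), and these became 2.04 ± 0.09 and -0.27 ± 0.10 without replicate 2 (adjusted p = 2.91e-10 and 0.0379). On the chromosome XII scale without that replicate they were 1.59 (adjusted p = 2.45e-09) and -0.27, the second not called (adjusted p = 0.0521). With all TAF14 libraries, the W81A fall was not called without any 1 of the W81A libraries (adjusted p = 0.0673 to 0.0927), with limma-voom (0.0644) or with the 6 libraries of the comparison alone (0.1).

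PIR3 (YKL163W, chromosome XI 144401-145378, plus strand), of the Pir family of O-glycosylated proteins linked to glucan, had 12.6, 12.2 and 10.5 CPM in wild type, 21.7, 20.6 and 15.9 in the deletant, 6.87, 8.68 and 9.49 in W81A cells and 5.55, 18.3 and 5.42 in TAF14 cells. Wild type lay between the deletion and W81A strains without overlap, and TAF14 replicates 1 and 3 were the lowest libraries. W81A libraries were 2.32-fold lower than deletion libraries (-1.21 ± 0.35, adjusted p = 0.0135, and 0.0548 without W81A replicate 1). PIR3 was not called against wild type with all libraries, at 0.72 ± 0.34 in the deletant and -0.50 ± 0.37 in W81A cells (adjusted p = 0.0943 and 0.346). Without TAF14 replicate 2 the same differences had an SE of 0.14 and 0.16 and both were called (adjusted p = 0.000548 and 0.0236). The W81A difference from TAF14 cells changed sign, from -0.26 ± 0.38 (adjusted p = 0.635) to 0.61 ± 0.20 (adjusted p = 0.0303). In the deletant PIR3 rose by 0.95 ± 0.34 against TAF14 cells (adjusted p = 0.0337), a call lost without deletion replicate 1 or 2 or TAF14 replicate 1 or 3 (adjusted p = 0.0733 to 0.12), and by 1.82 ± 0.18 without TAF14 replicate 2 (adjusted p = 1.17e-06).

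CWP1 (YKL096W, chromosome XI 261132-261851, plus strand), for a GPI-anchored mannoprotein, had 66.6, 70.6 and 63.1 CPM in wild type, 128, 139 and 149 in the deletant, 39.6, 38.3 and 44.2 in W81A cells and 45.3, 214 and 36.7 in TAF14 cells. Replicate 2 of TAF14 cells was the highest of all 12 libraries, 5.21-fold above the mean of its partners, which lay on either side of the W81A libraries. CWP1 was 3.41-fold lower in W81A cells than in the deletant (-1.77 ± 0.49, adjusted p = 0.0101). Against wild type the deletion difference was 1.05 ± 0.47 (adjusted p = 0.0784) and the W81A difference -0.71 ± 0.49 (adjusted p = 0.311). The deletion difference was called without TAF14 replicate 1 or 3 (adjusted p = 0.0437 and 0.0308). Without TAF14 replicate 2 both were called, at 1.05 ± 0.08 and -0.71 ± 0.09 (adjusted p = 6.8e-08 and 2.43e-05), and CWP1 was then lower in TAF14 cells than in wild type (-0.70 ± 0.10, adjusted p = 0.000146), where all libraries had given 0.58 ± 0.47 (adjusted p = 0.427). The deletion difference from TAF14 cells was 0.48 ± 0.46 with replicate 2 (adjusted p = 0.407) and 1.76 ± 0.10 without it (adjusted p = 2.12e-09). For W81A cells it was -1.29 ± 0.49 and -0.0112 ± 0.10 (adjusted p = 0.0586 and 0.947), and it was called without TAF14 replicate 1 or 3 (adjusted p = 0.0199 and 0.0107).

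**Figure D3:**
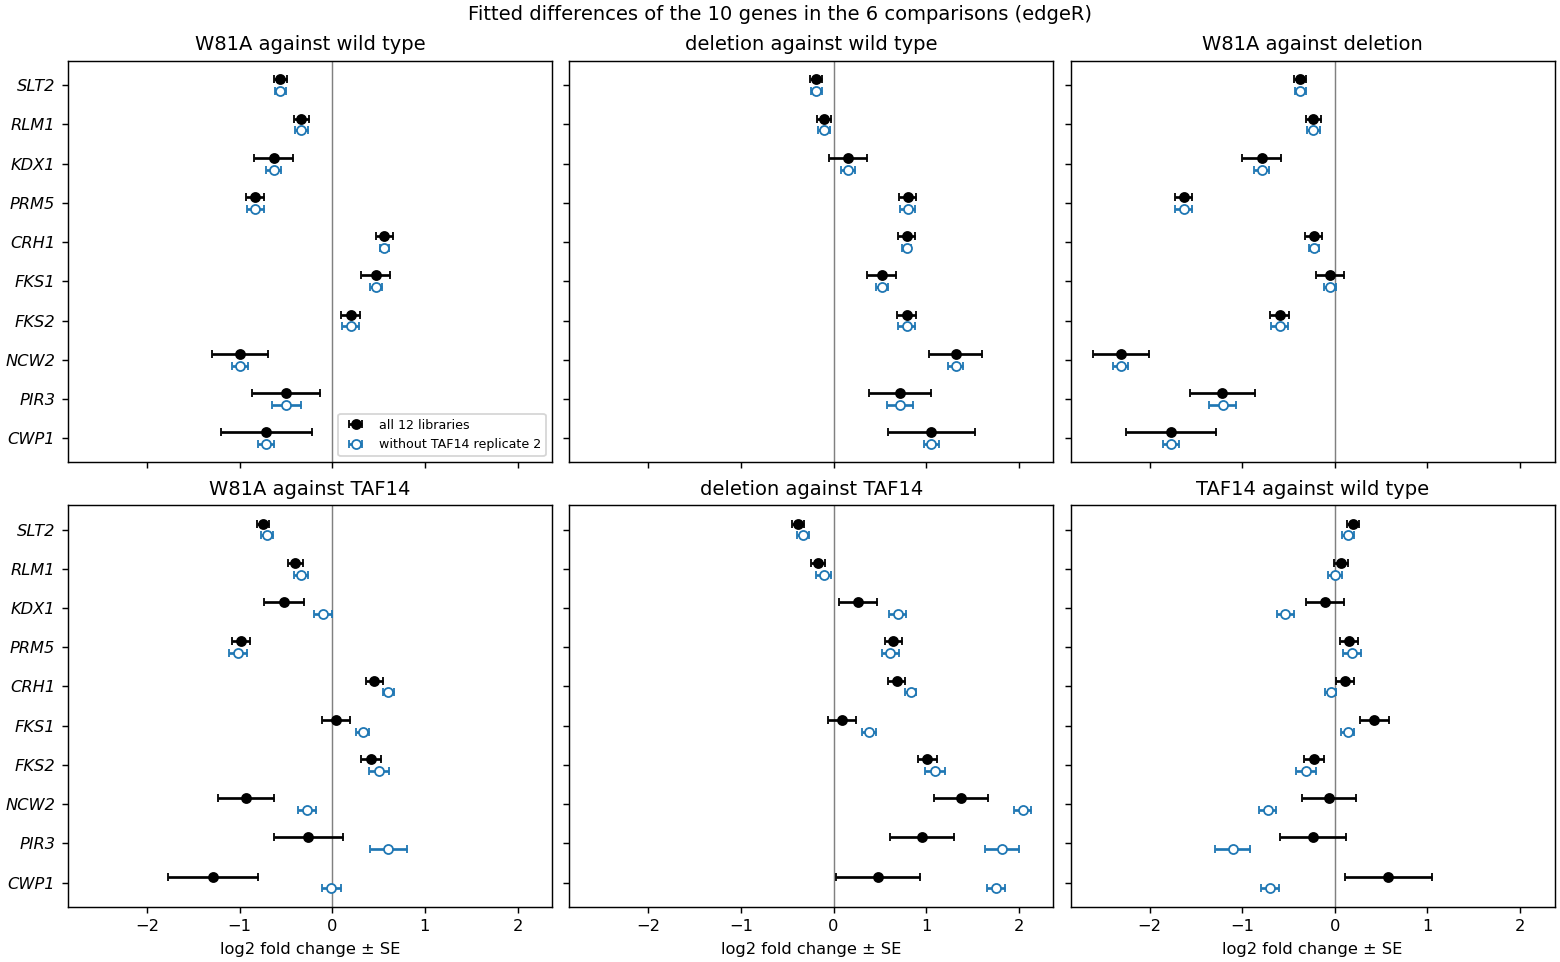
Log2 fold changes with their standard errors for the 10 members in the 6 comparisons, fitted to all 12 libraries (filled) and without replicate 2 of TAF14 cells (open). All 10 estimates of W81A cells relative to the deletant lie below 0 (FKS1 lies above 0 when scaled on chromosome XII genes), and leaving out that replicate moves KDX1, FKS1, NCW2, PIR3 and CWP1 in the 3 comparisons with TAF14 cells and narrows their errors in the other 3.

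Counted over the 10 members, most were lower in W81A cells when set against the deletant. There 8 members fell and CRH1 and FKS1 were not called, beside 45.2% of 5918 tested genes called in either direction, 22.7% higher and 22.5% lower; the median of the members was -0.69 and that of all tested genes 0.0111. Without TAF14 replicate 2, 9 members fell, beside 51.0% called. In 9 of the 10 members the libraries of these groups did not overlap, as in 57.8% of all tested genes. These strains share the deletant background and differ by label in carrying Taf14 W81A or no Taf14. They also differ in the chromosome XII shift, 0.489 to 0.548 in the deletion libraries and 0.0108 to 0.0151 in the W81A libraries. On the scale of that chromosome, FKS1 was higher in W81A cells (0.40, adjusted p = 0.00415) and NCW2 still lower (-1.86, adjusted p = 1.58e-06). The part of the shift in these counts was not tested.

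Against wild type, the signalling genes and PRM5 were lower in W81A cells, and CRH1 and FKS1 higher. In all, 5 members fell (SLT2, RLM1, PRM5, KDX1 and NCW2), 2 rose and 3 were not called, beside 27.2% of all tested genes called (12.7% higher and 14.5% lower). The members' median was -0.53 (-0.00312 over all tested genes), and none of the 10 had overlapping groups, against 48.0% of tested genes without overlap. Without wild type replicate 1 or 2, or any 1 of the W81A libraries, 4 members were called in place of 7 (20.1% to 22.6% of all tested genes were called in these fits), and without TAF14 replicate 2, which this comparison uses only to estimate the spread, 9 were (background 33.8%).

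In the deletant against wild type, 5 members rose (PRM5, CRH1, FKS1, FKS2 and NCW2), SLT2 fell and 4 were not called, beside 48.9% of all tested genes called (24.0% higher and 24.9% lower). Without TAF14 replicate 2, 7 rose and 1 fell (background 54.1%). The median of the members was 0.75 and that of all tested genes -0.0154. In 9 members the groups did not overlap, against 58.2% of tested genes. These first 3 comparisons share libraries, so they are given side by side and were not set against each other.

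Against TAF14 cells, 4 members fell in W81A cells (SLT2, RLM1, PRM5 and NCW2) and 2 rose (CRH1 and FKS2), beside 33.0% of all tested genes called (15.8% higher and 17.2% lower). In the deletant 5 rose (PRM5, CRH1, FKS2, NCW2 and PIR3) and SLT2 fell, beside 48.9% called (24.1% higher and 24.8% lower). Without replicate 2 the numbers were 4 lower and 4 higher in W81A cells (background 36.1%), and 1 lower and 8 higher in the deletant (background 53.2%), which moved the deletion count from 6 to 9. Groups did not overlap in 6 members for W81A cells and 5 for the deletant, against 45.9% and 54.1% of all tested genes.

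TAF14 on the plasmid against wild type TAF14 gave 0 called members with edgeR, beside 16.9% of all tested genes called (8.11% higher and 8.75% lower). There were 2 members at an unadjusted p below 0.05 (31.6% of tested genes), 2 called with DESeq2 (SLT2 and FKS1, both higher, beside 17.7%) and 0 with limma-voom (beside 16.6%). The groups did not overlap in 3 members, against 33.5% of tested genes. Without replicate 2, 4 members were lower in TAF14 cells: KDX1, NCW2 (-0.72 ± 0.09), PIR3 (-1.10 ± 0.19) and CWP1, beside 23.3% of tested genes. Replicate 2 lay at least 2-fold from the mean of its partners in 3 members (NCW2, PIR3 and CWP1) and in 2.13% of all tested genes. These 3 were 2.73-, 3.34- and 5.21-fold higher in that library, whose HSP12 was 26.6-fold higher and whose chromosome XII genes had a median of 0.530 above the partners in log2. The part of these in the members' values was not tested.

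Other genes of the pathway were read from 4 lists that leave out the members. Their counts stand beside 27.2% of all tested genes called in W81A cells against wild type, 48.9% in the deletant against wild type and 45.2% between W81A cells and the deletant. Of 18 genes for sensors and upstream signalling, 1 rose and 2 fell in W81A cells against wild type (median -0.0357), and 3 rose and 7 fell in the deletant (median -0.0381). Leaving out TAF14 replicate 2, these counts were 4 and 2, and 5 and 8, beside 33.8% and 54.1% of all tested genes called. The 3 that rose in the deletant (MID2, TUS1 and SPA2) and the 2 added without that replicate (ROM2 and SWI6) all lie on chromosome XII. Genes of that chromosome were shifted up in the deletion libraries, and the genes above were named for that position after their values were seen. In W81A cells, 0 of the 1 that rose with all libraries and 3 of the 4 that rose without that replicate lie there. The shift in W81A libraries was 0.0108 to 0.0151. The part of the shift in these calls was not tested. WSC3, a sensor gene, fell in W81A cells (-0.50 ± 0.10, adjusted p = 0.00242) and in the deletant (-0.88 ± 0.10, adjusted p = 2.08e-05). MID2, the sensor gene on chromosome XII, was lower in W81A cells than in the deletant (33.6 ± 1.13 against 56.9 ± 2.25 CPM, SD, -0.76 ± 0.09, adjusted p = 3.74e-05), with the chromosome XII shift in the second group. Of 11 negative regulators, 1 rose and 4 fell in W81A cells and 1 rose and 5 fell in the deletant, both against wild type (medians -0.21 and -0.15). MSG5, the phosphatase gene that restrains Slt2 and the mating MAP kinase, fell in both (-0.49 ± 0.07 and -0.63 ± 0.07, adjusted p = 0.000212 and 1.23e-05). LRG1, which turns off Rho1, fell in the deletant (-0.59 ± 0.06, adjusted p = 3.97e-06) and was 0.68 ± 0.06 higher in W81A cells than there (adjusted p = 1.28e-06).

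**Figure D4:**
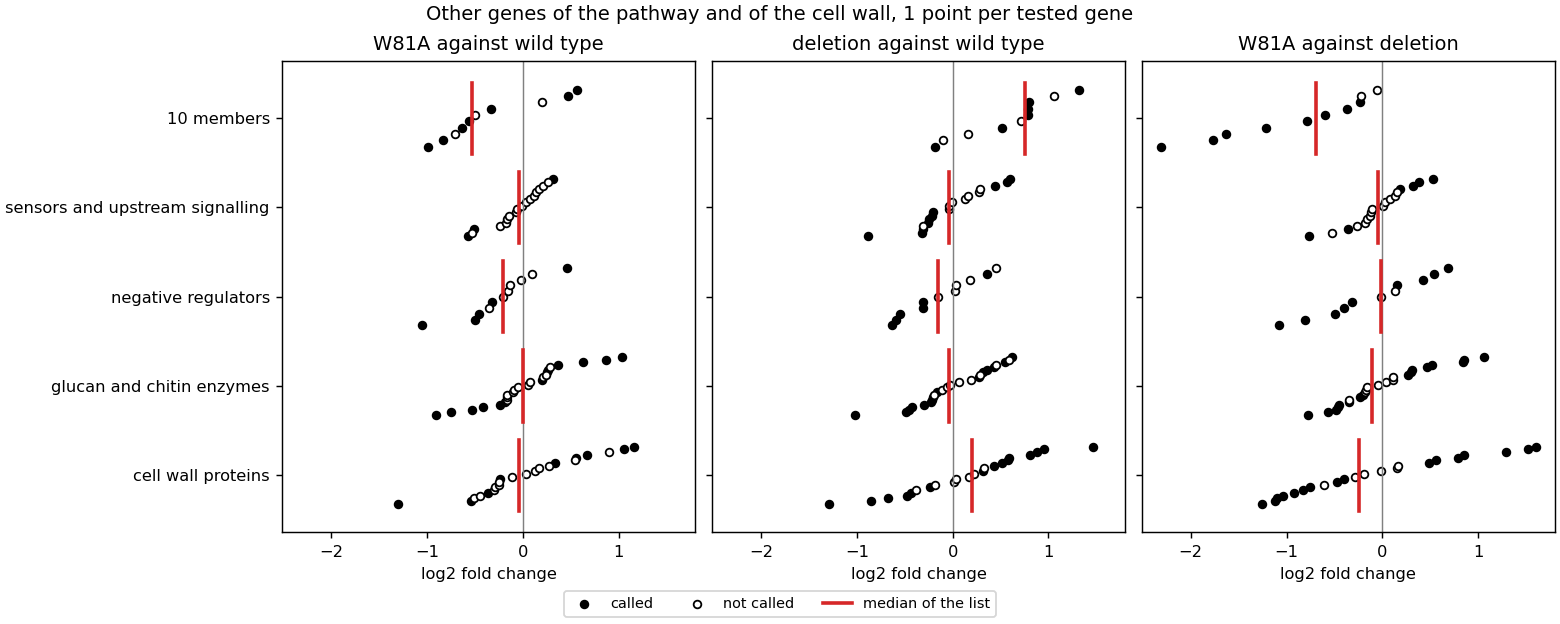
Log2 fold changes of the 10 members and of 4 lists of other pathway and wall genes in 3 comparisons, 1 point per tested gene, filled where called, with the list median in red. The medians of the 4 lists lie between -0.24 and 0.20, and those of the members at -0.53, 0.75 and -0.69.

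Among 24 glucan and chitin enzyme genes, 7 rose and 6 fell in W81A cells and 6 rose and 9 fell in the deletant against wild type (medians -0.00274 and -0.0429). GAS1, the main glucan-elongating enzyme gene, rose in W81A cells by 0.87 ± 0.08 (3487 against 1912 CPM, adjusted p = 4.99e-06), and SKN1, a gene for beta-1,6-glucan synthesis, fell in W81A cells (-0.75 ± 0.07) and the deletant (-1.02 ± 0.07, adjusted p = 4.3e-06 and 1.1e-07). UTR2, the paralog of CRH1, rose in both (0.26 ± 0.07 and 0.43 ± 0.07, adjusted p = 0.0162 and 0.000301) and in TAF14 cells (0.55 ± 0.07, adjusted p = 0.00029, and 0.62 without replicate 2), where the CRH1 difference was 0.11 ± 0.09 (adjusted p = 0.458). FKS3, the third glucan synthase homolog, rose in W81A cells by 0.26 ± 0.09 (adjusted p = 0.0387) and differed by -0.0542 ± 0.09 in the deletant (adjusted p = 0.626). Its mean was 52.3 CPM in both W81A and TAF14 cells, against 43.7 in wild type. The W81A difference from TAF14 cells in FKS3 was 0.00302 ± 0.08 (adjusted p = 0.984). Of 22 other wall protein genes, 5 rose and 4 fell in W81A cells, and 9 rose and 6 fell in the deletant (medians -0.0408 and 0.20). Without TAF14 replicate 2 these counts were 7 and 8, and 11 and 6, beside 33.8% and 54.1% of all tested genes called. Of the genes that rose in the deletant with all libraries, 2 of the 9 wall protein genes and 1 of the 6 enzyme genes lie on chromosome XII. YGP1, for a secreted glycoprotein, rose in W81A cells (1.16 ± 0.09, adjusted p = 1.76e-06) and fell in the deletant (-0.44 ± 0.09, adjusted p = 0.00155). TAF14 cells also had more YGP1 than wild type (564 against 353 CPM), and W81A cells were 0.49 ± 0.09 above TAF14 cells (adjusted p = 0.00133). SPI1, for a GPI-anchored wall protein, fell in W81A cells and the deletant (-1.30 ± 0.14 and -1.29 ± 0.14, adjusted p = 3.43e-05 and 1.36e-05). Its level was as low in TAF14 cells (15.2 CPM, against 36.2 in wild type, 14.7 in W81A cells and 14.8 in the deletant). The W81A difference from TAF14 cells in SPI1 was -0.0388 ± 0.16 (adjusted p = 0.876). In W81A cells against the deletant 7 of these 22 were higher and 9 lower (median -0.24), against 4 and 2 of the 18 upstream genes, 4 and 5 of the 11 regulators and 8 and 8 of the 24 enzymes.

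Likeness of profile was measured as the root mean square difference of log2 CPM over the 12 libraries after centring each gene. The 3 genes nearest to CWP1 were NCW2 (0.35), PIR3 (0.39) and CCW14 (0.40), each for a wall protein, beside a spread of CWP1 itself of 0.85. NCW2 and CCW14 lie on chromosome XII. In TAF14 replicate 2, CWP1, NCW2 and PIR3 were 5.21-, 2.73- and 3.34-fold above its partners, and CCW14 had 305 CPM against 158 and 129. Likeness without that library was not measured. Nearest to NCW2 were GSY2 (0.25), HSP104 (0.26) and PNC1 (0.27), for glycogen synthase, a heat shock disaggregase and nicotinamidase, the first 2 on chromosome XII. Among the genes nearest to PRM5 were STI1 (0.15) and ARI1 (0.20). FKS1 was nearest to genes of its own chromosome, YLR342W-A (0.0664), YCS4 and STU2 (0.11 each). KDX1 likewise had HOG1 (0.15), NMA1 and IMD3 (0.16 each) of chromosome XII nearest, though it lies on chromosome XI. For FKS2 these were BDF2 (0.11), PIL1 (0.12) and ACC1 (0.13), and for PIR3 SDH2 (0.21), FAA1 (0.27) and MET13 (0.28). SLT2, RLM1 and CRH1 had spreads of 0.28, 0.17 and 0.34, and their closest genes were YLL054C (0.0841), SUB1 (0.0890) and CIR1 (0.0945).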

How the data were processed

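The authors deposited 1 table of read counts, with a row per gene and a column per library. The submitters' processing notes name TopHat2 2.0.14, SAMtools 0.1.19, HTSeq 0.6.1p1, DESeq2 1.8.1 and build sacCer3 (R64). Per the labels, RNA was extracted with phenol and chloroform, DNase-treated, depleted with Ribo-Zero Gold and made into stranded TruSeq libraries. The annotation and the strand setting of the counting are not given in the sources used here.

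Of 6692 entries, 6008 matched RefSeq R64 by locus tag; the other 684 have no coordinates here, so whether any overlaps a member was not examined. Testing used R 4.3.3 and edgeR 4.0.16: the quasi-likelihood F-test on 4 groups and all 12 libraries (8 residual degrees of freedom), TMM scaling and the default low-count filter, which kept 5918 genes including all 10 members. Adjusted p is Benjamini-Hochberg over all tested genes of a comparison, called below 0.05. The ± after a log2 fold change is a standard error derived from the F statistic, with n = 3 libraries per group; CPM uses the scaled library size, RPKM divides it by coding length in kilobases. A limit from 0 counts is 3 counts and covers counting error only. The dispersion corresponds to a biological coefficient of variation of 8.59%.

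The members and gene lists were chosen with earlier results of these data known. Other genes were named by rule: the 3 smallest p of a list in a comparison, paralogs or neighbours of members, and the 3 most alike profiles (1 of those of PRM5 is not reported here). Windows of 600 and 1000 bases for promoter letters were chosen after seeing the data. Near copies were searched with blastn 2.17.0+. Alternatives were DESeq2 1.42.0, limma-voom (limma 3.58.1), other scalings and filters, the 6 libraries of a comparison alone, a stricter threshold, a replicate term and each library left out. The pipeline was tested on simulated data. Replicates differed by more than sampling noise in every pair.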

Additional observations from a re-analysis of the deposited data

How the results depend on the processing

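Of 60 member differences (10 members in 6 comparisons) and 1284 refits of them, 1200 kept their side of the threshold, 41 lost a call, 39 gained one and 4 were called with the opposite sign, in PIR3 of W81A cells against TAF14 cells (0.61 without TAF14 replicate 2, -0.539 to 0.61 over each library left out), CWP1 of TAF14 cells against wild type (-0.70 without that replicate, -0.70 to 0.963 over each library left out) and FKS1 of W81A cells against the deletant (0.40 with chromosome XII scaling, with or without that replicate, the second chosen after seeing the data). A further 14 uncalled differences changed sign without being called. Comparing TAF14 cells with wild type called 0 members, which became 2 with DESeq2, 1 with RLE scaling, 1 with scaling outside chromosome XII, and 0 to 4 with each library left out in turn (17.7%, 17.2%, 17.2% and 9.40% to 23.3% of all tested genes called). In W81A cells against wild type it was 7, became 4 at an adjusted p below 0.01 (16.0% of all tested genes) and ranged from 4 to 9 with each library left out (20.1% to 33.8%). In W81A cells against the deletant it was 8, became 5 at that threshold (30.2%) and ranged from 7 to 9 (37.4% to 51.0%). The sign of FKS1 in W81A cells against the deletant changed on chromosome XII scaling alone. No cause of a changed call or sign was tested. Same-numbered libraries did not deviate together (a correlation over 0.1 in 3 of 18 pairs, and 5 of 12 libraries nearest to their own number), so numbers were not taken as pairs. The replicate block gave 6, 6, 6, 0, 7 and 8 called members in the 6 comparisons, as without it. The order is W81A cells and the deletant against TAF14 cells, the deletant, TAF14 and W81A cells against wild type, and W81A cells against the deletant. Beside them 32.4%, 49.1%, 48.5%, 15.9%, 27.0% and 44.7% of all tested genes were called. Depth limits PIR3 most, at 50 to 207 reads per library.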

Other observations

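The wall protein genes next to members were read beside them. CWP2, 1600 bases upstream of CWP1 on the same strand and encoding another GPI-anchored mannoprotein, had 3343.8 ± 234 CPM (SD, n = 3) in W81A cells against 1614.5 ± 165 in wild type and 1164 ± 37.9 in the deletant. It rose in W81A cells against wild type (1.05 ± 0.16, adjusted p = 0.000437) and fell in the deletant (-0.47 ± 0.16, adjusted p = 0.027), where CWP1 differed by -0.71 ± 0.49 and 1.05 ± 0.47, neither called with all libraries and both called without TAF14 replicate 2. CWP2 was 1.52 ± 0.16 higher in W81A cells than in the deletant (adjusted p = 1.19e-05), and CWP1 was 1.77 ± 0.49 lower on the log2 scale (-1.77, adjusted p = 0.0101).

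PIR1, divergently transcribed 1581 bases from PIR3 and of the same Pir family, had 606 ± 25.2 CPM in wild type, 863 ± 57.9 in the deletant, 512 ± 26.9 in W81A cells and 428 ± 50.9 in TAF14 cells. It rose in the deletant and fell in W81A cells against wild type (0.51 ± 0.08 and -0.24 ± 0.08, adjusted p = 0.0003 and 0.0481), and fell in TAF14 cells (-0.50 ± 0.08, adjusted p = 0.00183, and -0.60 without TAF14 replicate 2). HSP150, another Pir gene, rose in the deletant (0.95 ± 0.12, adjusted p = 3.55e-05) and differed by -0.30 ± 0.12 in W81A cells (adjusted p = 0.075, and 0.00543 without TAF14 replicate 2). PIR5 rose in the deletant (0.59 ± 0.15, adjusted p = 0.00654) and differed by -0.45 ± 0.17 in W81A cells (adjusted p = 0.0627). CIS3, also of the family, rose in W81A cells (0.67 ± 0.12, adjusted p = 0.00116) and differed by -0.18 ± 0.12 in the deletant (adjusted p = 0.231). It had 154 ± 17.8 CPM in TAF14 cells, against 114 ± 5.53 in wild type and 182 ± 36.1 in W81A cells. The W81A difference from TAF14 cells in CIS3 was 0.23 ± 0.12 (adjusted p = 0.146), or 0.33 without TAF14 replicate 2 (adjusted p = 0.0395). PIR3 aligned with PIR1 over 99.8% of its length at 71.6% identity, under the 95% taken as a near copy.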
